A study of Mus musculus with 15 samples.

Results

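Transcripts of the heme synthesis pathway and of mitochondrial iron import were followed in the RNA of circulating extracellular vesicles (EVs), small membrane-bound particles that cells release into blood. The set holds 8 genes chosen by symbol, 7 enzymes of the pathway (Alas2, Alad, Uros, Urod, Cpox, Ppox and Fech) and the iron importer Slc25a37, of 43472 gene symbols in the count tables, and all 8 were listed there. RNA had been sequenced from 15 libraries, 3 from WT mice (C57BL/6, black 6 in the labels), 6 from dystrophic mice that lack β-sarcoglycan (Sgcb-null) and 6 from hypertrophic mice. The hypertrophic genotype is MAGIC-F1 in the labels and Mstn-null in the study's methods, so the libraries are named here by condition only. All mice were 3 to 6 months old and untreated, each library was made from pooled EVs of 2 to 3 mice, and the source is serum in the sample labels and plasma in the series' design. Each library has its own sample entry, but the labels do not say which mice went into which pool, so p-values measure the spread between these libraries. The methods list fewer mice of each line than 6 pools of 2 to 3 different mice would need. By these numbers the 6 libraries of a mutant condition cannot all come from different mice, and they may not be independent.

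Heme is made in a chain of enzymatic steps that starts and ends in the mitochondrion and passes through the cytosol. ALAS2 is the erythroid form of the first enzyme and sets the rate of the pathway in red cell precursors, FECH inserts iron into the finished ring, and SLC25A37 (mitoferrin 1) carries that iron across the inner mitochondrial membrane. Reticulocytes, the youngest red cells in blood, keep mRNAs of this pathway beside abundant hemoglobin mRNA, which is why the transcripts were set against the 4 adult hemoglobin genes Hba-a1, Hba-a2, Hbb-bs and Hbb-bt in each library.

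Alas2 lies at chromosome X from 150547375 to 150570638 of mm10 on the plus strand (ENSMUSG00000025270.13). The stretch before its start is shown because Alas2 was the only one of the 8 genes with reads in every library and because it had the highest rank correlation with hemoglobin. The sequence is from RefSeq (GRCm38.p6, plus strand, chrX:150547167-150547374, 208 bases). Capitals mark a match to the motif of the erythroid GATA factors, searched on both strands as AGATAA or TGATAA, each also with G as its last letter.
Alas2: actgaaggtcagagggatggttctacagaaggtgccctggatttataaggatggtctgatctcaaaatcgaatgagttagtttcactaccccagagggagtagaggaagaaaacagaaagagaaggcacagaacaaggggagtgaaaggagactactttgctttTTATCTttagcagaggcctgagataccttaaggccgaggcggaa
The match is AGATAA on the minus strand, 86 to 81 bases before the RefSeq start. Of the 8 genes, 6 had a promoter in the RefSeq set, with 8 windows of 250 bases before a start between them. A match was found in 3 of these windows, at Alas2, at 1 of 2 starts of Uros (2 matches) and at Cpox (2 overlapping matches), and at none of the windows of Alad, Urod or Ppox. Over all 32851 promoter windows of the same length, 26.5% held at least 1 match.

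Libraries held 27227 to 32563362 reads on genes, with a median of 2158538, and between 797 and 8968 genes had at least 1 read. A count of 0 allows up to 3 reads, which is 0.0921 CPM (counts per 1000000 reads on genes) in the deepest library and 110 CPM in WT replicate 1, the shallowest. These limits cover counting error only, because the RNA was amplified before library preparation and copies of 1 molecule are not independent. The library numbers in the sample titles and in the deposited counts differ in 6 cases, crossed between the 2 mutant conditions: replicates 4 to 6 of the dystrophic and 1 to 3 of the hypertrophic condition. Groups follow the labels, and values with these 6 libraries exchanged or left out are given where they change a direction. Sgcb, the gene deleted in the dystrophic mice, had 0 reads in 14 of 15 libraries, including all 3 from WT mice, so a count of 0 said nothing about a label. Its only reads, 695 or 365 CPM, were in hypertrophic replicate 3, 1 of the 6 crossed libraries. Counts per gene symbol do not show which part of Sgcb was read, so these reads do not settle the label of that library. The other 5 could not be checked in this way.

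Alas2 dominated the set. It held 57.2% to 100% of the reads of the 8 genes in a library, with a median of 76.8%. Reads of Alas2 were found in all 15 libraries, as for 169 genes in all, 1.27% of the 13281 genes with any read and 0.389% of all symbols. Fech followed with reads in 13 libraries, Alad and Slc25a37 with 8 each, Urod with 6, Uros with 3, Cpox with 2 and Ppox with 1. Of the genes with any read, 17.5% had reads in at least 8 libraries and 3.55% in at least 13.

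**Figure D1:**
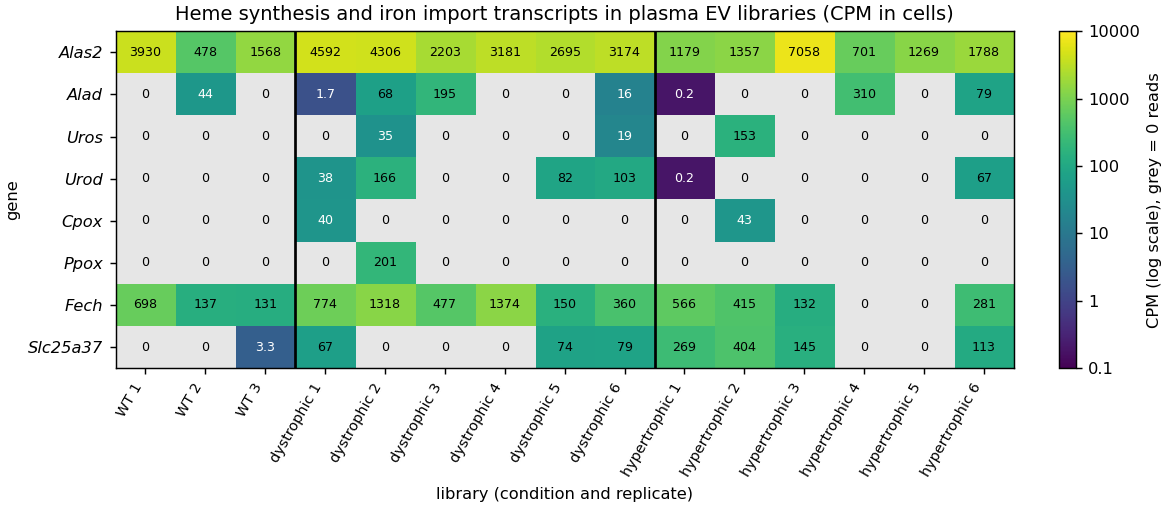
CPM of each of the 8 genes (vertical axis) in each of the 15 libraries (horizontal axis), with color on a log scale and grey for 0 reads; black lines part the 3 conditions. Alas2 has a value in every library and Fech in 13, while Uros, Cpox and Ppox appear in 3, 2 and 1 libraries.

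Levels of different genes were set side by side per kilobase of merged exons, a scale that takes out gene length but not uneven amplification or coverage, whose part was not tested. Alas2 had 1095 ± 742 CPM per kb (SD, n = 15 libraries of all conditions). The next level, that of Fech, was 32.8 ± 31.3 CPM per kb (SD, n = 15). Alas2 was above Fech in 15 of 15 libraries. The order below it was less certain. Fech was above Alad, at 25.4 ± 48.1 CPM per kb (SD, n = 15), in 10 libraries and below it in 4. Fech has 13838 nt of merged exons and Alad 1871 nt, and before division by length their means were 454 and 47.6 CPM. Alad was above Slc25a37, at 12.8 ± 19.7 CPM per kb (SD, n = 15), in 5 libraries and below it in 7, so these neighbors did not differ beyond their spread. Urod at 11.8, Uros at 3.88, Ppox at 2.96 and Cpox at 0.833 CPM per kb had a median of 0.

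The number of the 8 genes seen in a library varied with how many genes were seen in all. Between 2 and 3 of the 8 genes had reads in the WT-derived libraries, 2 to 6 in the dystrophic-derived and 1 to 5 in the hypertrophic-derived ones. The Spearman correlation of this number with the number of genes detected was 0.838 over the 15 libraries. It is given as a description, since both counts come from the same libraries.

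Alas2, the first and rate-setting enzyme, had 3930, 478 and 1568 CPM in the 3 WT-derived libraries. In the dystrophic-derived libraries it had 4592, 4306, 2203, 3181, 2695 and 3174 CPM, and in the hypertrophic-derived ones 1179, 1357, 7058, 701, 1269 and 1788 CPM. The dystrophic-derived libraries were even, while hypertrophic replicate 3 held the highest level of all 15 libraries and the other 5 of its condition lay below every dystrophic-derived one. The means were 1992 ± 1765 CPM in WT-derived (SD, n = 3), 3358 ± 923 CPM in dystrophic-derived (SD, n = 6) and 2225 ± 2393 CPM in hypertrophic-derived EVs (SD, n = 6). The ranges of the conditions overlapped in every pair.

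By edgeR's quasi-likelihood test over 6887 genes, the log2 fold change of Alas2 was 1.06 (SE 0.88, Benjamini-Hochberg adjusted p = 0.611) in dystrophic-derived against WT-derived EVs. It was 0.20 (SE 0.84, adjusted p = 1 by edgeR) in hypertrophic-derived against WT-derived EVs. For hypertrophic-derived against dystrophic-derived EVs it was −0.85 (SE 0.68, adjusted p = 0.9998 by edgeR). None of these differences exceeded the spread between libraries. The sign of hypertrophic-derived against WT-derived EVs turned without either of 2 libraries, to −0.57 without hypertrophic replicate 3 (adjusted p = 0.942 by edgeR) and to −0.22 without WT replicate 2 (adjusted p = 0.997 by edgeR). Without hypertrophic replicate 3 the difference from dystrophic-derived EVs kept its sign at −1.63 (SE 0.77) and was still not called (adjusted p = 0.309 by edgeR). Without WT replicate 2 the log2 fold change was 0.57 in dystrophic-derived against WT-derived EVs. Within the 9 libraries whose title numbers belong to the lower series, the mean of Alas2 was 3700 CPM in 3 dystrophic-derived and 3198 CPM in 3 hypertrophic-derived libraries, and within the 6 of the higher series it was 3017 and 1253 CPM, n = 3 each.

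In a bulk preparation, fewer vesicles from one kind of cell and less RNA per vesicle cannot be told apart, here and in each comparison that follows. Part of the Alas2 exons, 311 of 2403 nt, lies opposite exons of Apex2, which had 0 reads in all 15 libraries.

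Fech, the last enzyme, had 698, 137 and 131 CPM in the WT-derived libraries, the first from 19 reads in the shallowest library. In the dystrophic-derived libraries it had 774, 1318, 477, 1374, 150 and 360 CPM, and in the hypertrophic-derived ones 566, 415, 132, 0, 0 and 281 CPM. The 3 highest values were all from dystrophic mice, and the only 2 libraries without reads were from hypertrophic mice. Both of these, hypertrophic replicates 4 and 5, were among the shallow libraries, with 451013 and 328710 reads, and their limits of 6.65 and 9.13 CPM were below the lowest level of Fech seen elsewhere. The means were 322 ± 325 CPM in WT-derived (SD, n = 3), 742 ± 510 CPM in dystrophic-derived (SD, n = 6) and 232 ± 230 CPM in hypertrophic-derived EVs (SD, n = 6), with overlap between all conditions.

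The log2 fold change of Fech was 1.45 (SE 1.74, adjusted p = 0.871 by edgeR) in dystrophic-derived and −0.11 (SE 1.62, adjusted p = 1 by edgeR) in hypertrophic-derived against WT-derived EVs. For hypertrophic-derived against dystrophic-derived EVs it was −1.56 (SE 1.35, adjusted p = 0.9998 by edgeR). The mean CPM in hypertrophic-derived EVs was 0.313 of that in dystrophic-derived EVs, with an exact two-sided permutation p of 0.0498 before correction. This was the lowest of 24 such tests, 8 genes in 3 comparisons, which can reach 0.0238 for 6 libraries against 3 and 0.00216 for 6 against 6. Each of the other tests was above 0.1. Within the lower series of title numbers the mean of Fech was 856 CPM in dystrophic-derived and 371 CPM in hypertrophic-derived libraries, and within the higher series 628 and 93.8 CPM, n = 3 each.

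**Figure D2:**
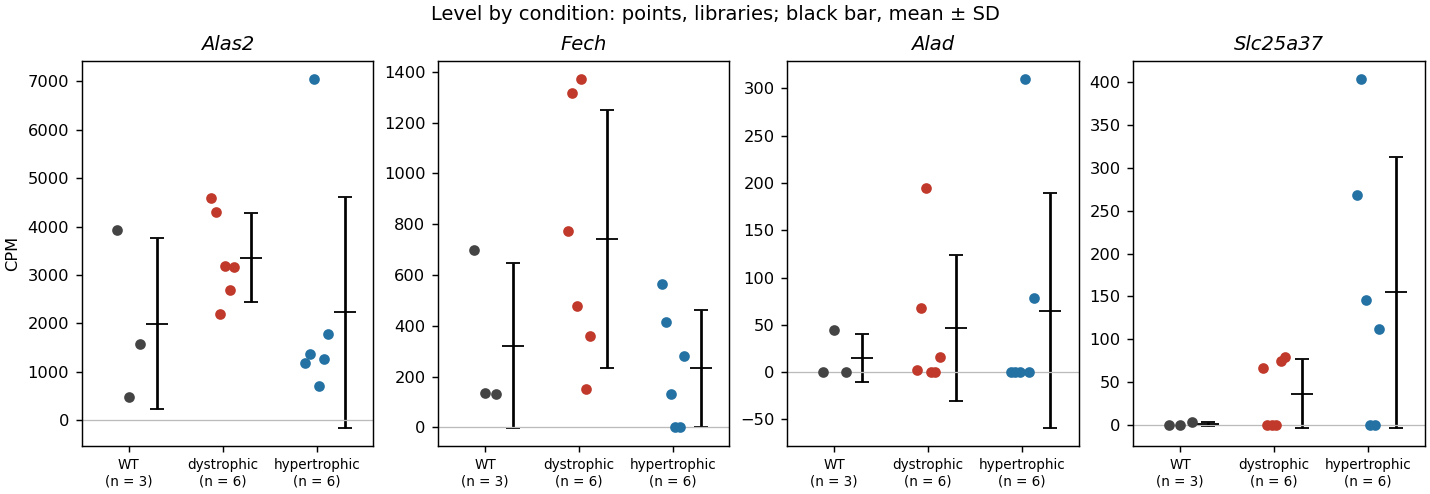
CPM (vertical axes, linear) of Alas2, Fech, Alad and Slc25a37 by condition, with 1 point per library and a black bar for the mean ± SD. For each gene the conditions overlap, and 1 hypertrophic-derived library at 7058 CPM stands far above the other 5 for Alas2.

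The cytosolic enzymes were found in 8 (Alad), 6 (Urod) and 3 (Uros) of the 15 libraries. Alad, which joins 2 molecules of the product of ALAS2, had reads in 1 WT-derived library (44.2 CPM), 4 dystrophic-derived ones (1.71, 68.1, 195 and 16.1 CPM) and 3 hypertrophic-derived ones (0.195, 310 and 78.6 CPM). The lowest of these rest on 2 reads in dystrophic replicate 1 and on 1 read in hypertrophic replicate 1. Urod, which trims the side chains of the ring, had reads in 4 dystrophic-derived libraries (38.4, 166, 82.0 and 103 CPM) and 2 hypertrophic-derived ones (0.195 and 67.3 CPM), and in none from WT mice. The lower of the hypertrophic values was again 1 read. Uros, which closes the ring, had 35.2 and 19.3 CPM in dystrophic replicates 2 and 6, 153 CPM in hypertrophic replicate 2 and no reads elsewhere. Within the dystrophic and the hypertrophic condition each of these genes had reads in some libraries and none in others.

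The limits behind these zeros were compared with the levels seen elsewhere. Of the libraries without reads of Alad, 6 of 7 had a limit below 56.1 CPM, the median of the libraries with reads. The same held for 8 of 9 libraries without Urod (median 74.7 CPM) and 11 of 12 without Uros (median 35.2 CPM). The library that fell short in each case was WT replicate 1. Against the lowest level seen, the measure used for Fech, the limit was below it in 0 of 7 libraries for Alad and 0 of 9 for Urod. That lowest level was 0.195 CPM for both, from 1 read. For Uros the limit was below the lowest level, 19.3 CPM, in 11 of 12.

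Of the mitochondrial enzymes before FECH, Cpox was seen in dystrophic replicate 1 (47 reads, 40.2 CPM) and hypertrophic replicate 2 (250 reads, 43.1 CPM). Ppox was seen in dystrophic replicate 2 only, with 433 reads or 201 CPM. Both were at 0 in dystrophic replicate 6, which held 32563362 reads and so allows at most 0.0921 CPM. The 433 reads of Ppox thus stood beside none in a deeper library of the same condition. Of the Ppox exons, 17.5% lie opposite exons of B4galt3, so reads there cannot be assigned with certainty without a stated strand setting.

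Slc25a37, the iron importer, had 0, 0 and 3.32 CPM in the WT-derived libraries, the last from 2 reads. In the dystrophic-derived libraries it had 66.6, 0, 0, 0, 74.4 and 79.3 CPM, and in the hypertrophic-derived ones 269, 404, 145, 0, 0 and 113 CPM. Every hypertrophic-derived library with reads was above every dystrophic-derived and WT-derived library, but both conditions also held libraries at 0. The means were 1.11 ± 1.92 CPM (SD, n = 3), 36.7 ± 40.4 CPM (SD, n = 6) and 155 ± 158 CPM (SD, n = 6). The log2 fold change of hypertrophic-derived against dystrophic-derived EVs was 1.76 (SE 2.30, adjusted p = 0.9998 by edgeR), and the exact two-sided permutation p was 0.119 before correction. With the 6 crossed libraries exchanged the log2 fold change was −1.45, because the 3 highest libraries are among them. Hypertrophic replicates 4 and 5 held no reads of Slc25a37, as for Fech.

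Taking the pathway by counts, edgeR tested 6 of the 8 genes, since Cpox and Ppox did not pass the filter on low counts. None was called in any comparison at an adjusted p under 0.05, and 0 were under an unadjusted p of 0.05. Among all 6887 genes tested, 0.0145% were called in dystrophic-derived against WT-derived, 0.029% in hypertrophic-derived against WT-derived and 0.0145% in hypertrophic-derived against dystrophic-derived EVs. At the unadjusted threshold these shares were 2.02%, 8.02% and 12%. DESeq2 called 2 of the 6 genes, Urod and Uros, against WT-derived EVs in both conditions and 0 between hypertrophic-derived and dystrophic-derived EVs. Both genes were at 0 in all WT-derived libraries, and DESeq2 called 21.1%, 24.5% and 5.17% of all genes with an adjusted p in the 3 comparisons.

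The median log2 fold change of the 6 genes was 3.14 in dystrophic-derived and 3.84 in hypertrophic-derived against WT-derived EVs, beside 1.38 and 0.66 over all genes tested. Urod and Uros had no reads in WT-derived libraries and passed the filter through the mutant conditions alone. Slc25a37, with 2 reads in 1 WT-derived library, and Alad, with reads in 1 of 3, passed it mostly through those conditions too. Urod and Uros could only come out higher than WT, so the medians against WT lean upward by selection. With Urod and Uros set to the bound that 3 reads over the WT-derived libraries allow, the medians were 3.06 and 3.03. This does not remove the selection and leaves Alad and Slc25a37 as they were. For hypertrophic-derived against dystrophic-derived EVs the median was −0.29, beside −0.52 over all genes. The comparisons share their control libraries, and the values are a description of the 6 genes that passed the filter.

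Hemoglobin transcripts, the measure the 8 genes were related to, took 2.23% to 15.3% of the reads on genes in a library. Their summed level was 55964 ± 31319 CPM in WT-derived (SD, n = 3), 88828 ± 40921 CPM in dystrophic-derived (SD, n = 6) and 52456 ± 20727 CPM in hypertrophic-derived EVs (SD, n = 6). With the 6 crossed libraries exchanged, the hypertrophic-derived mean would be the highest of the 3, which was not tested. The exact two-sided permutation p-values, before correction over 3 comparisons, were 0.238, 0.833 and 0.0823 for dystrophic-derived against WT-derived, hypertrophic-derived against WT-derived and hypertrophic-derived against dystrophic-derived EVs. Of the 4 genes, Hbb-bs was called by edgeR in the last comparison, with a log2 fold change of −1.01 (SE 0.20, adjusted p = 0.00306). The call did not hold throughout. With the 6 crossed libraries exchanged the log2 fold change was 0.12 (adjusted p = 0.9997 by edgeR), and the call was also lost with only the 9 libraries with matching numbers (adjusted p = 0.726 by edgeR), without a filter (adjusted p = 0.0836 by edgeR) and by DESeq2 (adjusted p = 0.9999). It was lost as well without any one of dystrophic replicates 1, 2, 4 and 5 and hypertrophic replicates 1 and 6, with adjusted p-values of 0.103 to 0.206 by edgeR and log2 fold changes that stayed negative. Its paralog Hbb-bt is nearly identical in sequence, so the split of reads between them is uncertain. Reads without a unique alignment were in the summary lines left out, so the sum of the 4 genes may miss some of their reads.

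Alas2 tended to be high in the libraries in which hemoglobin was high, though the relation did not pass correction over all genes. The 3 libraries with the least hemoglobin, WT replicate 2 (22288 CPM), hypertrophic replicate 1 (28494 CPM) and hypertrophic replicate 6 (37714 CPM), held 478, 1179 and 1788 CPM of Alas2. The 3 with the most, dystrophic replicates 4 (152654 CPM) and 2 (123396 CPM) and WT replicate 1 (84218 CPM), held 3181, 4306 and 3930 CPM. Hypertrophic replicates 4 and 5 fell below this trend, with 701 and 1269 CPM of Alas2 at 49992 and 73755 CPM of hemoglobin.

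Over the 15 libraries, Spearman's rho between Alas2 and summed hemoglobin was 0.786 (permutation p = 0.00079) and Pearson's r of the log2 levels 0.742 (permutation p = 0.0017). Alas2 ranked first by rho among the 2317 genes with reads in at least 8 libraries, the hemoglobin genes left out. With Benjamini-Hochberg adjustment over these 2317 genes, p was 0.598 for rho and 0.629 for r, and 0.0% of the genes passed. At an unadjusted two-sided permutation p under 0.05 there were 177 of the 2317 genes. Only 9 genes (0.388% of the 2317) had a positive rho there, so most genes under this threshold ran opposite to hemoglobin. The median rho over all genes was −0.18, and both levels are shares of the same library.

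The 2 libraries with hemoglobin farthest from the median were WT replicate 2 and dystrophic replicate 4, and without them rho was 0.725 (permutation p = 0.00657) and r 0.673 (permutation p = 0.0116). With each library left out in turn, rho stayed between 0.736 and 0.842. Over the 11 libraries with at least 1000000 reads, a limit chosen after the data were seen, rho was 0.900 (permutation p = 0.00038). With mitochondrial and hemoglobin reads taken out of the total, it was 0.757. Within conditions, rho was 0.771 in the 6 dystrophic-derived libraries (exact permutation p = 0.103) and 0.314 in the 6 hypertrophic-derived ones (exact permutation p = 0.564), so the relation did not pass the test within either condition. Within the 9 libraries of the lower title numbers rho was 0.833 (exact permutation p = 0.00827) and within the 6 of the higher ones 0.543 (exact permutation p = 0.297).

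**Figure D3:**
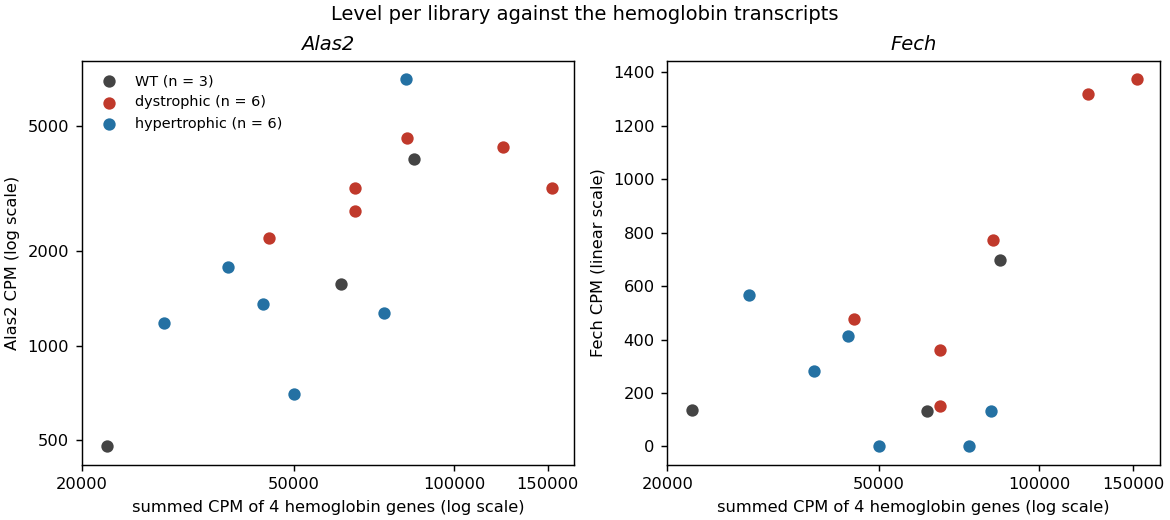
CPM of Alas2 (left, log scale) and Fech (right, linear scale) against the summed CPM of 4 hemoglobin genes (horizontal axis, log scale), 1 point per library, colored by condition. Alas2 tends to be higher where hemoglobin is higher (rho 0.786, adjusted p = 0.598 by permutation), and Fech scatters more widely (rho 0.415).

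The correlations of the other genes with hemoglobin were weaker or negative. For Fech, rho was 0.415 (permutation p = 0.127, adjusted p = 0.704 over 2317 genes) and r 0.148 (permutation p = 0.594). The sign of the Fech relation differed between conditions, with a rho of 0.829 in dystrophic-derived (n = 6, exact permutation p = 0.0583) and −0.75 in hypertrophic-derived libraries (n = 6, exact permutation p = 0.106), and the difference between them was not tested. For Alad rho was −0.36 (permutation p = 0.185) and for Slc25a37 −0.35 (permutation p = 0.195). Uros, Urod, Cpox and Ppox had reads in fewer than 8 libraries and were not related to hemoglobin. The rho of Slc25a37 with the number of genes detected was 0.580, and that of Alas2 was 0.014. Summed hemoglobin itself had a rho of −0.36 with the number of genes detected and −0.57 with the number of reads on genes. The part of depth in these correlations was not tested. Among the 8 genes themselves, rho between Alas2 and Fech was 0.522, and no other pair of the 4 genes was above 0.053.

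Relative to hemoglobin, Alas2 differed between the conditions by less than the spread between libraries. The libraries held 46.7, 21.4 and 25.5 Alas2 reads per 1000 hemoglobin reads in WT-derived EVs. There were 56.2, 34.9, 49.1, 20.8, 41.4 and 48.7 in dystrophic-derived EVs and 41.4, 31.1, 87.0, 14.0, 17.2 and 47.4 in hypertrophic-derived EVs. The hypertrophic-derived libraries spanned the whole range of the series, with replicate 3 highest and replicates 4 and 5 lowest. The means were 31.2 ± 13.5 (SD, n = 3), 41.8 ± 12.6 (SD, n = 6) and 39.7 ± 26.6 (SD, n = 6).

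The ratio of these means was 1.34 in dystrophic-derived against WT-derived EVs (exact two-sided permutation p = 0.286), 1.27 in hypertrophic-derived against WT-derived EVs (exact p = 0.738) and 0.948 in hypertrophic-derived against dystrophic-derived EVs (exact p = 0.859), all before correction. Without hypertrophic replicate 3 the last ratio was 0.722 (exact permutation p = 0.182), and over libraries with at least 1000000 reads it was 1.24 (exact permutation p = 0.486). The highest library of all exceeded the lowest 14.8 times in Alas2 CPM, 6.85 times in hemoglobin CPM and 6.21 times in Alas2 reads per 1000 hemoglobin reads.

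**Figure D4:**
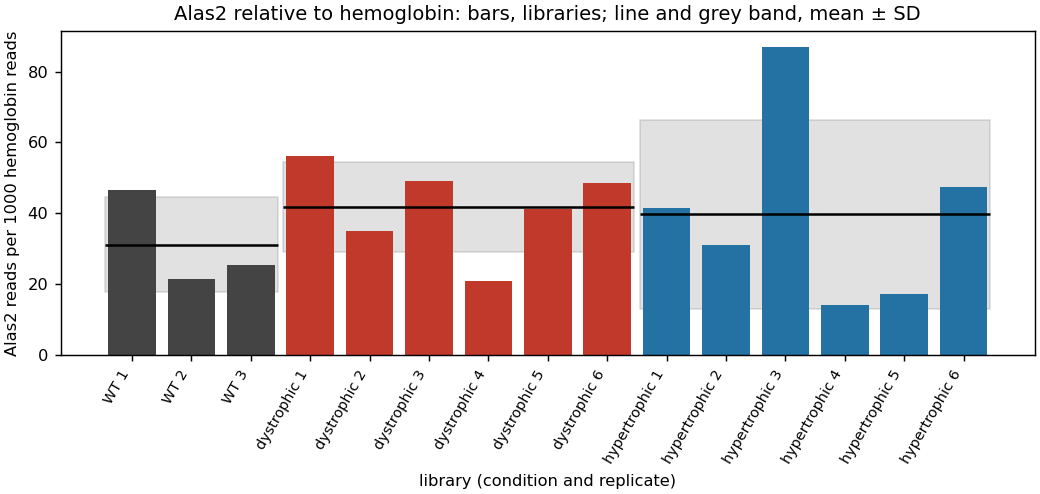
Alas2 reads per 1000 hemoglobin reads (vertical axis) in each library (bars), with the mean of each condition as a line and mean ± SD as a grey band. The means of 31.2, 41.8 and 39.7 lie within each other's bands, and hypertrophic replicate 3 at 87.0 is the highest bar.

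The genes with the pattern most like that of a gene were sought by Spearman's rho of CPM over the 15 libraries, among the 2317 genes with reads in at least 8 libraries that are left when the 8 genes are taken out and hemoglobin genes are kept. For Alas2 these were Hbb-bs (0.786), Hbb-bt (0.782) and Hba-a2 (0.739), where 99% of genes were below 0.562. For Fech they were Mob1a (0.803), Bcap31 (0.796) and Hagh (0.746), for Alad Vars (0.908), Abcf1 (0.894) and Arhgef3 (0.884), and for Slc25a37 Brd2 (0.925), Sart1 (0.925) and Tmem123 (0.897). Hemoglobin genes were thus nearest to Alas2 and were not among the 3 nearest of the other genes. For genes with many zeros a shared pattern of zeros raises rho, and 99% of genes were below 0.717 for Alad and below 0.813 for Slc25a37.

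The rest of the heme pathway, a list of 29 genes for other steps, iron-sulfur cluster assembly, transport and heme breakdown, was measured as sparsely. Reads were found for 28 of the 29 genes in at least 1 library and for 0 in all 15. Alas1, the form of the first enzyme used outside red cells, had reads in 4 libraries, as did Slc25a28, the importer used outside them. The best detected were Slc25a39, a mitochondrial carrier of glutathione (13 libraries, 451 ± 423 CPM, SD, n = 15), and Slc48a1, which moves heme out of lysosomes (11 libraries, 273 ± 437 CPM, SD, n = 15). They were followed by Snx3, a sorting nexin of transferrin receptor recycling (11 libraries, 217 ± 174 CPM, SD, n = 15), and the scaffold of iron-sulfur cluster assembly Iscu (10 libraries, 96.0 ± 158 CPM, SD, n = 15).

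Of this list 17 genes were tested and 0 were called by edgeR in any comparison. At an unadjusted p under 0.05 there were 2 genes in hypertrophic-derived against dystrophic-derived EVs, where 12% of all genes tested were under it, and 0 in the other comparisons. Fam210b, a mitochondrial protein of erythroid iron use, was among them, with reads in 3 of 6 dystrophic-derived and 1 of 6 hypertrophic-derived libraries (adjusted p = 0.208 by edgeR). Its mean was 21.8 CPM in dystrophic-derived and 0.0326 CPM in hypertrophic-derived EVs. Fam210b thus passed the filter through the dystrophic condition alone, so its direction was fixed in advance. The median log2 fold change of the tested genes was −0.66 in that comparison, beside −0.52 over all genes.

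Regulators of erythroid heme synthesis formed a list of 11 genes, of which 10 were tested and 0 called by edgeR. The transcription factor Nfe2, shared by erythroid cells and megakaryocytes, had reads in all 15 libraries, Tal1 in 11, Bach1, a repressor that is released by heme, in 8, and Eif2ak1, the heme-regulated inhibitor of translation, in 7. The mean of Nfe2 was 385 CPM in WT-derived, 72.8 CPM in dystrophic-derived and 598 CPM in hypertrophic-derived EVs (adjusted p = 0.9998 by edgeR between the last 2). Gata1, a factor of erythroid and megakaryocytic cells, had reads in 6 libraries and Klf1, the erythroid Krüppel-like factor, in none, which allows up to 0.0921 CPM in the deepest library. Aco1, which binds iron-responsive elements of mRNAs when iron is low, and Zfpm1, a partner of GATA1, had reads in 3 dystrophic-derived libraries and none elsewhere. Both passed the filter through that condition alone, so their direction was fixed in advance. Between hypertrophic-derived and dystrophic-derived EVs both were under an unadjusted p of 0.05 by edgeR, as were 12% of all genes tested (adjusted p = 0.123 for each by edgeR).

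Markers of cell types were set beside these values. Of 12 erythroid markers, 11 were listed and 9 had reads in some library, with Bpgm in 15, Slc4a1 in 10 and Rhag in none, and their summed level ran from 36.7 to 429 CPM in WT-derived, 362 to 1571 CPM in dystrophic-derived and 36.5 to 1694 CPM in hypertrophic-derived libraries. The rho with hemoglobin was −0.0073 for Slc4a1, the anion exchanger of the red cell membrane, and 0.232 for Bpgm, the enzyme that makes the bisphosphoglycerate that tunes oxygen release. The 7 platelet markers all had reads, and their sum was 18364 to 28317, 9575 to 20524 and 15217 to 33351 CPM in the same order. The sum of 7 hepatocyte markers was 0 to 123, 0 to 156 and 212 to 2181 CPM. Its lowest hypertrophic-derived value came from Cyp2e1 alone. Of these markers edgeR tested 5 and called 0 in any comparison, and the separation of the sums was not tested. With the 6 crossed libraries exchanged, both mutant conditions would hold libraries from both ranges. The sum of 7 leukocyte markers was 1510 to 2681, 1180 to 3498 and 1535 to 5179 CPM, and that of 6 skeletal muscle markers 0 to 295, 0 to 143 and 0 to 281 CPM. The sum of 5 mRNAs of EV marker proteins (Cd9, Cd63, Cd81, Pdcd6ip and Tsg101) was 8015 to 17776, 4217 to 14806 and 5783 to 34446 CPM. The part of these cell types in the levels of the 8 genes was not tested.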

How the data were processed

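The authors deposited raw counts of reads per gene symbol for each of 15 libraries, without normalization or filter. Per the study's methods the RNA was preamplified, sequenced as single reads of 50 nt and aligned with TopHat to mm10, and the submitters' processing notes also name HTSeq and DESeq. The annotation, the strand setting and the library that went with each pool of mice are not given in the sources used here, and the labels and the methods differ on the kit and the sequencer. The 5 summary lines of each table, 57.9% to 99.2% of its total, name no gene and were left out of totals and tests.

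CPM were computed over all 43472 gene symbols. Conditions were compared in R 4.3.3 by edgeR 4.0.16, which uses limma 3.58.1 (TMM, filterByExpr, quasi-likelihood test, all 15 libraries in 1 fit, no covariate), with Benjamini-Hochberg adjustment over 6887 genes and SE from the F statistic, and with exact two-sided permutation tests of mean CPM (scipy 1.17.1). The biological coefficient of variation was 3.04. Relations to hemoglobin used Spearman's rho of CPM and Pearson's r of log2 CPM (prior count 2) with 100000 permutations, or exact enumeration for 9 libraries or fewer. On simulated data, edgeR called 125 of 200 genes changed 4-fold between dystrophic-derived and WT-derived libraries, and 4 unchanged genes, of 6887. The spread set in the simulation was far below that of the real libraries. It therefore checked the running of the test only and gives no measure of its power in these data.

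The 8 genes and all lists were chosen with earlier results of these data known. From each list were named the genes called and the 4 with reads in most libraries, and Alas1, Slc25a28, Fam210b, Gata1, Klf1, Aco1, Zfpm1 and the erythroid markers were named after their values were seen. Ahsp was not analysed here, and some genes of the lists are not reported here by name. Gene positions and exon lengths are from GENCODE M21 (mm10). The alternatives tried were DESeq2 1.42.0 and its own size factors (645 genes had no adjusted p), library sizes without TMM, TMMwsp, no filter, at least 10 reads in 3 libraries, the 2 compared conditions alone, totals without mitochondrial and hemoglobin genes, the 6 crossed libraries exchanged, the 9 others alone, the title number series as a covariate and each library left out in turn.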

Additional observations from a re-analysis of the deposited data

Results flagged for a closer look

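Within conditions, 19 groups of 6 libraries were examined for 1 library far from the others, and 8 were picked out. In 7 of them 2 to 5 of the other 5 libraries were at 0, and in 4 of these all 5 were, where a single library with reads is picked out by construction. The rate of about 1 in 20 groups that chance picks does not hold for groups with many zeros, so the number picked out says nothing by itself. Alad stood at 195 CPM in dystrophic replicate 3 and at 310 CPM in hypertrophic replicate 4. Uros stood at 153 CPM in hypertrophic replicate 2, and Urod at 67.3 CPM in hypertrophic replicate 6. Cpox stood at 40.2 CPM in dystrophic replicate 1 and at 43.1 CPM in hypertrophic replicate 2, and Ppox at 201 CPM in dystrophic replicate 2. Alas2 in hypertrophic replicate 3, at 7058 CPM, was the only one among libraries that all had reads. That library, 1 of the 6 with crossed numbers, was also the only one with reads of Sgcb.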

How the results depend on the processing

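The number of the 8 genes called stayed at 0 under every alternative run except DESeq2, which called 2 in each comparison with WT-derived EVs. The relation of Alas2 to hemoglobin kept its sign under all alternatives. Directions of differences that did not pass the test changed as follows, and the causes were not tested. In hypertrophic-derived against WT-derived EVs, the log2 fold change was −0.78 for Alas2 with only the 9 libraries with matching numbers, −2.15 for Alad with the title number series as a covariate, and for Fech 0.33 without a filter, 0.58 with the 6 libraries exchanged and 0.17 with the covariate. In hypertrophic-derived against dystrophic-derived EVs it was −2.81 for Alad and −2.05 for Uros with the covariate, and with the exchange −2.94 for Uros, 0.91 for Urod and −1.45 for Slc25a37. Fech against hemoglobin had a rho of −0.75 and an r of −0.53 within hypertrophic-derived libraries. The mean of summed hemoglobin CPM turned from lowest to highest in hypertrophic-derived EVs with the 6 libraries exchanged. The ratio of Alas2 reads per 1000 hemoglobin reads was 0.840 in hypertrophic-derived against WT-derived EVs with the 9 libraries, and 1.24 against dystrophic-derived EVs in libraries with at least 1000000 reads. With each library left out, the log2 fold change ran from −0.27 to 10.01 (Alad, dystrophic-derived against WT-derived), −0.072 to 10.31, −0.57 to 0.69 and −0.38 to 0.50 (Alad, Alas2 and Fech, hypertrophic-derived against WT-derived) and −0.89 to 1.37 (Alad, hypertrophic-derived against dystrophic-derived), and the Alas2 ratio from 0.968 to 1.69 against WT-derived and 0.722 to 1.07 against dystrophic-derived EVs. No paired analysis was possible because the replicate numbers were given in accession order and pair no libraries. Differences from WT rest on 3 libraries, 1 of them with 27227 reads, and 7 of the 8 genes were at 0 in 2 or more libraries.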

Other observations

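The genes for heme breakdown and recycling were present unevenly. Blvrb, a biliverdin reductase that is abundant in red cells, had reads in 9 libraries (121 ± 241 CPM, SD, n = 15), 1 of 3 from WT, 4 of 6 from dystrophic and 4 of 6 from hypertrophic mice. Hmox1 and Hmox2, the heme oxygenases, had reads in 2 and 4 libraries, with highest levels of 63.3 and 76.0 CPM. Slc48a1 had reads in all 6 dystrophic-derived libraries, 2 of 3 WT-derived and 3 of 6 hypertrophic-derived ones, and its log2 fold change between hypertrophic-derived and dystrophic-derived EVs was −1.64 (SE 1.56, adjusted p = 0.9998 by edgeR's quasi-likelihood test). These genes were chosen after their values were seen.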
